A study of Mus musculus with 21 samples.

Results

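The proteasome subunit genes are the mouse genes whose symbols run from Psma1 to Psmg4, that is Psma, Psmb, Psmc, Psmd, Psme, Psmf or Psmg followed by a number, without the immunoproteasome genes Psmb8 and Psmb9. They were chosen by symbol and not by any measured value. There were 45 of them among the 12404 genes measured, 44 in the MEF table, 44 in the table of cells without vitamin C and 45 in the table of cells with it. The gene found in 1 table alone was Psma8. The genes were measured by RNA sequencing in 21 libraries of mouse embryonic fibroblasts (MEFs) of the ICR strain, derived at embryonic day 13.5 and used at passage 2. Series and labels describe a study of the cell cycle and of Dnmt1, the maintenance DNA methyltransferase, in MEFs and in MEFs on their way to pluripotency.

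There were 7 libraries in each of 3 tables, and each library was the single one of its group. All cells had been infected with retrovirus carrying the named constructs. The MEF table held the control Flag+shLuc, Dnmt1, shDnmt1, shp53, shp53+shDnmt1, Tet1-CD, and a library titled 5C Flag+shLuc, whose "5C" the labels do not explain, whose column is headed 5CDay4 and whose source is also given as MEFs. The 14 reprogramming libraries were MEFs infected with retroviral Sox2, Klf4, Oct4 and c-Myc (SKOM), harvested on day 5 and kept in mouse embryonic stem cell medium without (Vc-) or with (Vc+) vitamin C. Each medium had Flag+shLuc, Dnmt1, shDnmt1, shp53+shDnmt1, Tet1CD, Tet1CD with Dnmt1 (spelled Tet1CD+Dmnt1) and Tet1CD+shDnmt1. All 14 carry the 4 SKOM factors, and shp53 came only together with shDnmt1 there. The labels name no promoter for the constructs and do not say whether cells were pooled from several embryos. The cells were mixed populations, so fewer cells of a type and less RNA per cell cannot be told apart.

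The 26S proteasome degrades proteins that carry ubiquitin chains. Its core, the 20S particle, is a barrel of outer rings of alpha subunits and inner rings of beta subunits, and Psmb5, Psmb6 and Psmb7 hold the chymotrypsin-like, caspase-like and trypsin-like sites. The 19S regulatory particle caps it: a ring of Psmc ATPases unfolds the substrate, Psmd1, Psmd2 and Psmd4 belong to its base, and the lid holds the deubiquitinase Psmd14. Dedicated chaperones build both parts, Psmg1 to Psmg4 for the alpha ring and Psmd5, Psmd9 and Psmd10 for the ATPase ring. Psmb10, Psme1 and Psme2 are induced by interferon gamma, and transcription of most core and regulatory particle genes is raised by Nfe2l1 when proteasome activity falls.

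Values were normalized by the authors within each table, hold whole numbers and carry no read depth. In every library of a SKOM table the median gene had the same value, 180 without and 226 with vitamin C, and it was 203 to 208 in the MEF libraries and 5C. The tables can therefore be compared only after centring. The 5C library kept to the value list of its table less than the others, with 97.1% of its ranks holding another value than that list, against 1.05% to 33.1% in the 6 MEF libraries. Dnmt1 was 1.02-fold, 1.02-fold and 1.01-fold of its control in the MEF, Vc- and Vc+ libraries labelled Dnmt1, while it was 957 in the MEF control and 208 with shDnmt1. Trp53, the gene for p53, fell from 1008 to 157 with shp53 in MEFs. Tet1 lay between 2140 and 3129 in the 6 SKOM libraries with Tet1CD and between 11 and 88 in the 8 without, and it was not among the genes analysed in the MEF table. Of 10 fibroblast markers, all were listed in the MEF and Vc+ tables and 9 in the Vc- table. Of 8 pluripotency markers none was listed in the MEF or Vc- table and 1 in the Vc+ table.

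Levels of different genes are set side by side per kilobase of mRNA, on the assumption that the deposited values hold no length correction, which the sources used here do not say. On that scale the core and regulatory particle genes lay close together in the MEF control. The 7 alpha ring genes had values of 256 to 895 per kilobase, the 7 beta ring genes 296 to 930, the 6 ATPase genes 394 to 843 and the 8 lid genes 270 to 1085. The assembly chaperones were lower. Psmg1 to Psmg4 had 31.7 to 196 per kilobase and the 3 chaperones of the ATPase ring 48.5 to 125. Psmb10 was the lowest catalytic subunit, at 25.9 per kilobase. Members also varied little between libraries: over the 6 MEF libraries the median standard deviation on the log2 scale was 0.12 for 43 members and 0.22 for all 9928 genes with a mean of at least 50. Psmd6, a lid subunit, varied least (0.016) and Psmg2 most (0.36). Over the 4 SKOM libraries without Tet1CD the gap was smaller, 0.097 for members against 0.126 for all genes in Vc- and 0.098 against 0.121 in Vc+. Members were not compared with genes of like level.

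Tet1CD, the catalytic domain of the 5-methylcytosine dioxygenase Tet1, was compared with its absence over the 14 SKOM libraries, 6 with it and 8 without. These groups also differed in Myc, 1 of the SKOM factors. It was 6109 to 7995 with Tet1CD and 13535 to 18104 without in Vc+ libraries. In Vc- libraries it was 7021 to 10782 with Tet1CD and 19681, the highest value of that table, in every library without. The part of Myc in the changes below was not tested. Of 44 members, 11 fell and 0 rose in limma (16 lower and 1 higher at an unadjusted p under 0.05). The fallen ones were the 4 chaperones of the alpha ring (Psmg1, Psmg2, Psmg3 and Psmg4), the alternative activator Psme3, the core subunits Psma3, Psma7, Psmb4, Psmb6 and Psmb7, and the ATPase Psmc1. The background must be read beside that count: 24.9% of all 10711 genes fell and 20.3% rose in the same comparison. The share of members that fell was thus near the background, and the absence of members that rose was the side on which they departed from it. The estimate was below 0 for 34 of 44 members, with a median of -0.13 on the log2 scale against -0.04 for all genes. The share of all genes below 0 was not counted, so the 34 is read as no result about the members. All changes here are differences of log2(value + 5) from a limma fit across all genes with adjustment after Benjamini and Hochberg. There was 1 library per group, so the errors measure the spread between these libraries around an additive model and nothing shows that they came from separate cultures.

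**Figure D1:**
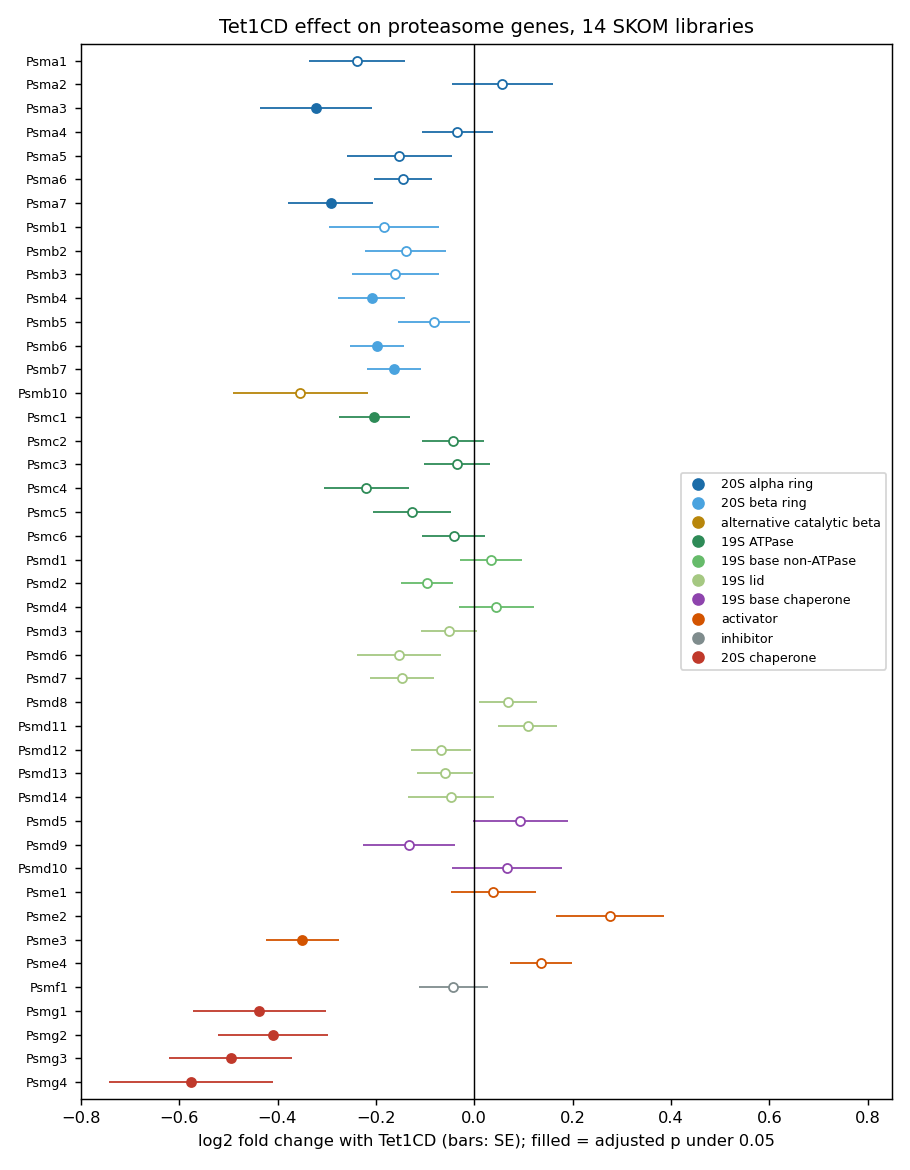
Change with Tet1CD of 44 proteasome genes over 14 SKOM libraries (horizontal axis, log2 fold change with its standard error), coloured by role, with filled points for adjusted p under 0.05. The 4 alpha ring chaperones (Psmg1 to Psmg4) lie between -0.58 and -0.41 at the bottom, while the lid and base genes lie near 0.

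The alpha ring chaperones moved most. Psmg1 and Psmg2 form the pair that starts alpha ring assembly, and Psmg3 and Psmg4 form a second pair that acts beside it. Values are given in the order Flag+shLuc, Dnmt1, shDnmt1 and shp53+shDnmt1, against Tet1CD, Tet1CD+Dmnt1 and Tet1CD+shDnmt1. In Vc- cells Psmg3 was 54, 50, 53 and 44 against 37, 39 and 22. In Vc+ cells it was 97, 84, 70 and 106 against 68, 63 and 61. The groups did not overlap in either medium, and the fitted change was -0.50 ± 0.13 (SE, adjusted p = 0.00764), lower in 6 of 6 matched pairs of libraries. Its transcript shares 22.7% of its 50-base words with other genes, so its values are uncertain to that extent.

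Psmg4 showed the largest drop of the 44. Its values were 34, 29, 32 and 41 against 26, 29 and 22 without vitamin C, where the groups touched at 29. With vitamin C they were 54, 77, 81 and 64 against 43, 35 and 29, which did not overlap. The fitted change was -0.58 ± 0.17 (SE, adjusted p = 0.0148), and these are low values. A gene is in a table only where at least 2 of its 7 libraries reach 32, and Psmg4 is in the Vc- table through its libraries without Tet1CD alone, so its Vc- values had to be higher there and its count among the 11 is partly set by that.

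Psmg2 was 148, 133, 144 and 115 against 119, 107 and 96 in Vc- libraries and 194, 226, 201 and 261 against 165, 182 and 117 in Vc+ libraries. It overlapped without vitamin C, where the shp53+shDnmt1 library was the lowest of the 4 without Tet1CD, and did not overlap with it. The change was -0.41 ± 0.11 (SE, adjusted p = 0.0114), lower in 6 of 6 pairs. Psmg1 was 208, 223, 185 and 190 against 157, 156 and 141 in Vc- libraries, and 335, 353, 339 and 420 against 201, 205 and 376 in Vc+ libraries. The library that broke the pattern was Vc+ Tet1CD+shDnmt1, at 376. Its change over all libraries was -0.44 ± 0.13 (SE, adjusted p = 0.0203), and -0.57 (adjusted p = 0.00222) without that library.

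Psme3 encodes the nuclear activator PA28 gamma, which opens the core for substrates without ubiquitin. It was 1363, 1395, 1343 and 1343 against 1280, 1077 and 1174 in Vc- libraries and 1970, 2292, 2140 and 2161 against 1453, 1643 and 1486 in Vc+ libraries. No library with Tet1CD reached the lowest one without it in either medium. The change was -0.35 ± 0.07 (SE, adjusted p = 0.00324), the smallest p of all members, and it was past the threshold in 14 of 14 fits that left out 1 library each. The same held for Psmg2, Psmg3, Psmg4 and Psmb6, whereas Psmg1 kept its call in 11 of the 14.

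The promoters of 4 of these 5 genes are shown because the genes fell together. They run from 250 bases before to 50 after the RefSeq start site (GRCm38.p6, the assembly also called mm10), 5′ to 3′ on the gene's strand, and capitals mark matches of the motifs named after them.
Psmg1, chr16:95990911-95991210, minus strand: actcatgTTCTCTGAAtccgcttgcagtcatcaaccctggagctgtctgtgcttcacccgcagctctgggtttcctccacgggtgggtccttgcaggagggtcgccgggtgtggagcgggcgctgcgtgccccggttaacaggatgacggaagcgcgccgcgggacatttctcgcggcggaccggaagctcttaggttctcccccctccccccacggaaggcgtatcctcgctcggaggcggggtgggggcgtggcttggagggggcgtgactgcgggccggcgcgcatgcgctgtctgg
Psmg3, chr5:139826845-139827144, minus strand: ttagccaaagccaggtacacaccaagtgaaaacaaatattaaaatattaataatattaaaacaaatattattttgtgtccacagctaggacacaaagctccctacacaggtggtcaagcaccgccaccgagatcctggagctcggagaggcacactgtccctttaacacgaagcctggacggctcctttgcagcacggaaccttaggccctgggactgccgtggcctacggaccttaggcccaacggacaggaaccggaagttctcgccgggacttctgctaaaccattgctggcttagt
Psmg4, chr13:34162714-34163013, plus strand: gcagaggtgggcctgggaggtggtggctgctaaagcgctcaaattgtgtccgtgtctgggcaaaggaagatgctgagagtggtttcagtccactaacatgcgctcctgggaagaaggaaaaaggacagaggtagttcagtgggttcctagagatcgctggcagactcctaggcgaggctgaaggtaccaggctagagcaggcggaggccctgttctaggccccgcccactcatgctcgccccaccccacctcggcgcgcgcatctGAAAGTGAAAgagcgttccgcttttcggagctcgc
Psme3, chr11:101315963-101316262, plus strand: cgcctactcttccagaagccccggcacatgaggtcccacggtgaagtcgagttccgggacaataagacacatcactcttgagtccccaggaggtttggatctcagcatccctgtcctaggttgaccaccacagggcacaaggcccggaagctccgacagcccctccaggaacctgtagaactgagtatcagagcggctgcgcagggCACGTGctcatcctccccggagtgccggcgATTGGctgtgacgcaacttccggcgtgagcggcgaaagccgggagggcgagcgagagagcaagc

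The motifs were searched on both strands: CCAAT (the NF-Y box), CACGTG (the E box), TGACNNNGC (a core of the antioxidant response element), GAAA, any 2 bases and GAAA again (a core of the interferon-stimulated response element) and TTCNNNGAA (the gamma-activated site). Promoters of the 4 genes had no motif in common. Psme3 had an E box at -44 to -39 from the start site and a CCAAT box, read as ATTGG, at -14 to -10. Psmg4 had GAAAGTGAAA at 15 to 24, Psmg1 had TTCTCTGAA at -243 to -235, and Psmg3 had none of the 5. Over the 37 members with a RefSeq window, CCAAT was found in 12 (32.4%, against 37.4% of 32851 promoters of that length), the antioxidant core in 6 (16.2% against 12.4%), the E box in 4 (10.8% against 7.15%), the interferon-stimulated core in 5 (13.5% against 3.44%) and the gamma-activated site in 2 (5.41% against 8.3%). These are letter matches and no evidence of binding.

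**Figure D2:**
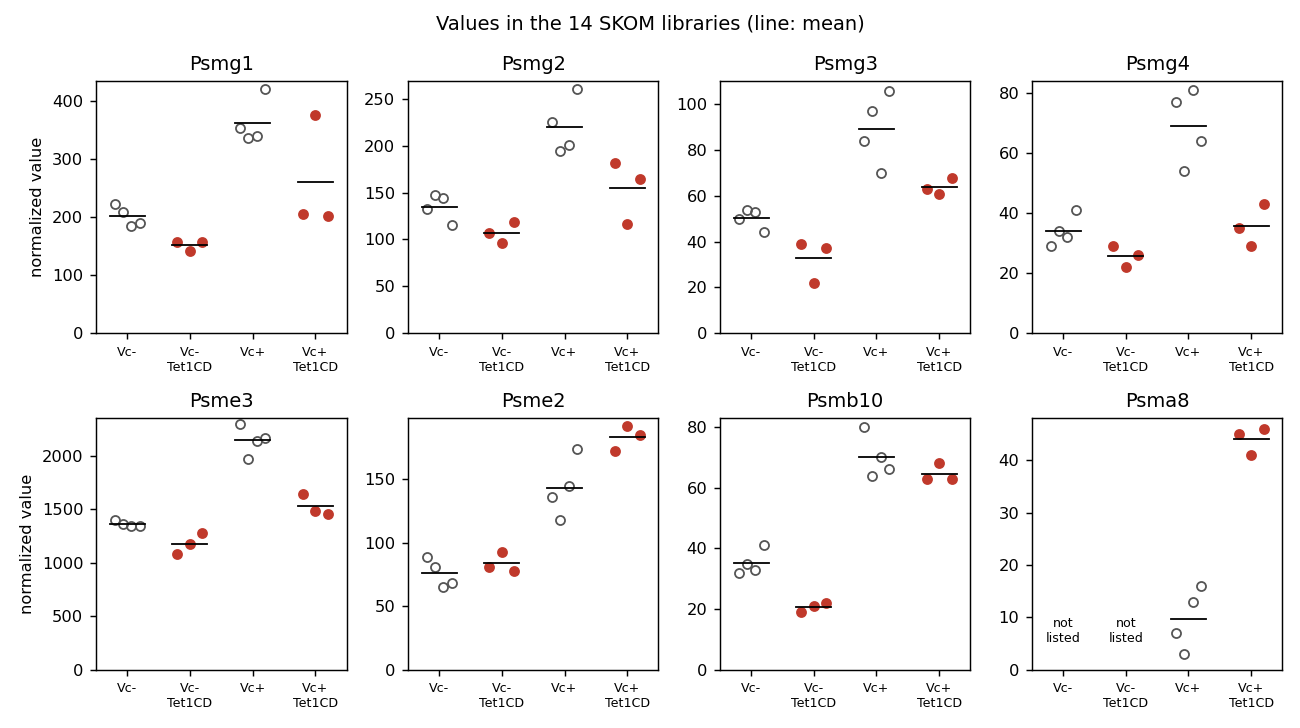
Normalized values (vertical axes, linear from 0) of 8 proteasome genes in the 14 SKOM libraries, by medium and Tet1CD, with 1 point per library and a line at the mean; the media come from tables normalized separately. Psme3 and Psmg3 with Tet1CD lie below all libraries without it in both media, Psmb10 in Vc- alone, and Psma8 is listed in Vc+ alone.

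In the core particle 5 of 14 genes fell, all by small amounts. The estimate was below 0 for 13 of the 14, from -0.32 to 0.06, with a median of -0.16. The share of all genes below 0 was not counted, so the 13 is likewise no result about the core genes. Psma7, an alpha ring subunit, was 451, 493, 400 and 441 against 346, 446 and 401 in Vc- and 675, 697, 705 and 691 against 602, 523 and 445 in Vc+ libraries. The Vc+ groups did not overlap and the Vc- groups did, and the change was -0.29 ± 0.09 (SE, adjusted p = 0.0168). Psma3, another subunit of that ring, had a change of -0.32 ± 0.11 (SE, adjusted p = 0.0375) with groups that overlapped in both media. The call was lost in 7 of 14 fits that left out a library, and its transcript shares 22.0% of its 50-base words with other genes, so its values are uncertain.

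The 3 catalytic subunits differed in their calls. Psmb6 was 680, 685, 597 and 647 against 551, 648 and 525 in Vc- and 994, 1148, 972 and 1076 against 896, 905 and 886 in Vc+ libraries, a change of -0.20 ± 0.05 (SE, adjusted p = 0.0116). Psmb7 was 623, 617, 557 and 643 against 504, 529 and 525, and 786, 834, 868 and 1004 against 754, 766 and 761, a change of -0.16 ± 0.05 (SE, adjusted p = 0.0293). The Psmb7 groups did not overlap in either medium, although the drop was the smallest of the 11 and its call was lost in 5 of 14 fits that left out a library. Psmb5 was 323, 363, 326 and 357 against 285, 327 and 280, and 437, 434, 467 and 485 against 513, 430 and 415. It did not pass (-0.08 ± 0.07, adjusted p = 0.378), its Vc+ Tet1CD library was the highest of the 7, and 57.1% of the 50-base words of its transcript recur in other genes. Whether Psmb5 differs from the other catalytic subunits was not tested. Psmb4, a structural beta subunit, fell by 0.21 ± 0.07 on the log2 scale (SE, adjusted p = 0.0257), a call lost in 6 of 14 such fits.

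Among the 17 genes of the 19S particle only Psmc1 fell, by 0.20 ± 0.07 on the log2 scale (SE, adjusted p = 0.0369). Its Vc- values were 1238, 1307, 1113 and 1293 against 1068, 1035 and 1113, and its Vc+ values 1786, 1680, 1751 and 2256 against 1359, 1453 and 1664. The call was lost in 8 of 14 fits that left out a library, and 17.6% of the 50-base words of its transcript recur in other genes. The 8 lid genes had a median change of -0.06 with no call, and the 3 other base genes 0.03. Psmd11, a lid subunit, had the highest estimate of the particle (0.11 ± 0.06, adjusted p = 0.156), higher in 5 of 6 pairs. The 3 ATPase ring chaperones gave no call: Psmd5 had 0.09 ± 0.10, Psmd9 -0.13 ± 0.09 and Psmd10 0.07 ± 0.11.

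The interferon-inducible members went different ways. Psmb10, which replaces Psmb7 in the immunoproteasome, was 35, 32, 33 and 41 against 22, 19 and 21 without vitamin C, groups that did not overlap. It is in that table through the 4 libraries without Tet1CD, none of the 3 others reaching 32, so it had to differ there. With vitamin C it was 64, 80, 70 and 66 against 63, 63 and 68, and the change over both media did not pass (-0.35 ± 0.14, adjusted p = 0.0518). Psme2, a subunit of the activator PA28, was 81, 89, 65 and 68 against 78, 81 and 93 without and 118, 136, 145 and 174 against 185, 172 and 192 with vitamin C. Its estimate was the highest of the 44 but did not pass (0.28 ± 0.11, adjusted p = 0.0574), and 59.3% of its 50-base words recur elsewhere, chiefly in Psme2b. Psme1, its partner, was 111, 122, 84 and 94 against 100, 129 and 89, and 188, 183, 177 and 169 against 198, 253 and 142, a change of 0.04 ± 0.09 (adjusted p = 0.736). Of 11 other interferon response genes, 10 rose and 0 fell in the same fit, with a median change of 1.16, and Rtp4 rose by 1.86 ± 0.28. Summed macrophage and leukocyte markers (5 of 10 listed in Vc+, 3 of 10 in Vc-) were 293 to 385 without and 1977 to 2673 with Tet1CD in Vc+ libraries, and 258 to 337 against 541 to 633 in Vc- libraries. Ptprc and Cd53 were listed at 0 in the Vc+ control. Fibroblast markers summed to 12657 to 21051 without and 30855 to 31680 with Tet1CD in Vc+ libraries, and to 13583 to 17540 against 17776 to 19106 in Vc- libraries. Collagens made up most of these sums, and the single markers did not all go their way. In Vc- libraries Dcn was 234 to 335 without and 217 to 227 with Tet1CD, and Lum 37 to 58 against 1 to 33. Col1a2 and Pdgfrb were higher there with Tet1CD, and the other listed markers overlapped. Epithelial markers (6 of 7 listed in Vc+, 5 of 7 in Vc-) were 4712 to 6295 against 2419 to 3433, and 3090 to 4503 against 2338 to 2521. Cd24a made up most of both epithelial sums. In Vc- libraries Cd24a and Cdh1 were lower with Tet1CD. Krt8 (57 to 139 against 54 to 81) and Cldn3 overlapped there, and Epcam touched at 34. The groups did not overlap in any of the marker sums. Some markers had to differ by the rule for listing, so the separation is partly set by it. Ptprc in both media and Lyz2 in Vc+ are listed through libraries with Tet1CD alone. Esrp1 in Vc+ and Cldn3 in Vc- are listed through libraries without Tet1CD alone. The part of cells of these types in the values of any member was not tested. Psme4, another activator, had 0.14 ± 0.06 (adjusted p = 0.099), and Psmf1, an inhibitor of the core, -0.04 ± 0.07 (adjusted p = 0.65).

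When each medium was fitted alone, with 2 residual degrees of freedom, few members were called. In both media and both directions the share of members called was under that of all genes. Without vitamin C, limma called 0 members higher (3 at an unadjusted p under 0.05) and 2 lower, where 7.25% of 10722 genes rose and 7.38% fell. The 2 were Psmg1 (-0.43 ± 0.08 SE, adjusted p = 0.0179) and Psmg2 (-0.39 ± 0.09 SE, adjusted p = 0.0372). Both lost their call in 4 of the 7 fits without 1 library. With vitamin C, 4 members fell, where 23.6% of 12021 genes fell: Psma7 (-0.41 ± 0.12), Psmg2 (-0.43 ± 0.13), Psmg4 (-0.89 ± 0.23) and Psme3 (-0.48 ± 0.08 SE, adjusted p = 0.0052). There, 0 members fell without the Dnmt1 library and 0 without the Tet1CD+Dmnt1 library. Psme2 rose by 0.45 ± 0.11 (SE, adjusted p = 0.0195), a call lost in 4 of the 7 fits without 1 library, and Psma8 was also called higher, where 20.7% of genes rose.

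Psma8 encodes the alpha subunit of the testis proteasome that stands in for Psma7. In Vc+ cells it was 3, 7, 13 and 16 against 46, 45 and 41, with the Tet1CD libraries on top. It is in that table through its Tet1CD libraries alone, since none of the 4 others reaches 32, so it had to differ and counts as no support for a rise. Its level with Tet1CD stayed far under the 445 to 602 of Psma7 in the same 3 libraries.

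The groups with and without Tet1CD failed to overlap for few members. In Vc- libraries all 3 with Tet1CD were below the 4 others for 6 members (Psmb7, Psmb10, Psmc5, Psme3, Psmg1 and Psmg3), where 15.7% of genes did the same and Psmb10 had to, and above them for 0 (15.3% of genes). In Vc+ libraries they were below for 13 members (31.3% of genes) and above for 2, Psma8 and Psmd11 (25.0% of genes). The 13 of 45 lay near the background. The difference of the Tet1CD effect between media, tested as an interaction, was called for 0 members in either direction in limma, where 8.57% of genes were called higher and 8.28% lower. At an unadjusted p under 0.05 there were 3 members, all with a lower effect in Vc+ libraries. These were Psmd4, a ubiquitin receptor (-0.33 ± 0.11, adjusted p = 0.0799), Psmd1 (-0.26 ± 0.10, adjusted p = 0.104) and Psme3 (-0.26 ± 0.11, adjusted p = 0.132).

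Some SKOM libraries were low for many members, a Vc+ library most of all, with the core particle and chaperones among its low genes. The Vc+ Tet1CD+shDnmt1 library held the lowest of the 7 values for 23 of 45 members (51.1%), where it did so for 22.4% of all genes. The 23 took in 11 of 15 core genes, 7 of 17 genes of the 19S particle and 4 of 7 assembly chaperones. Against the mean of the other 2 Tet1CD libraries of the medium, its 7 alpha ring genes had a median of -0.46, its 3 ATPase ring chaperones -0.45, its 4 alpha ring chaperones -0.23 and its beta ring genes -0.18 on the log2 scale, while all genes had -0.004. Psma3 was 442 there and 787 and 701 in the other 2, Psma1 483 against 750 and 590, and Psmb1 781 against 1277 and 1262. Genes with mRNAs under 1000 bases were also lower there (median -0.21 over 372 genes, -0.18 over 7 members). From 1000 to 2000 bases 25 members had -0.02 and all genes -0.07. From 2000 to 4000 bases 10 members had -0.12 and all genes -0.02, and above 4000 bases 2 members had -0.16 and all genes 0.03. The part of length was not tested. The 8 lid genes had a median of -0.02, the 6 ATPase genes 0.07, the 3 other base genes -0.11 and the 4 activators 0.02. Without this library 11 members were called lower over both media, not all of them the same. Psma3 (-0.20, adjusted p = 0.0527) and Psmb4 (-0.19, adjusted p = 0.0523) were no longer called, and the count then took in Psmb10 (-0.41, adjusted p = 0.0381), whose Vc- values, like those of Psmg4, are partly set by the rule for listing. At the other end, the Vc+ shp53+shDnmt1 library held the highest value for 21 of 45 members (46.7%, against 26.6% of genes). The Vc- shp53+shDnmt1 library held it for 25.0% of members (26.3% of genes). Lowest values also gathered in some Vc- libraries: 31.8% of members in Tet1CD+shDnmt1 (16.2% of genes), 25.0% in Tet1CD (11.4%) and 20.5% in shDnmt1 (5.78%). In Vc- Tet1CD+Dmnt1 the share was 11.4% of members and 18.5% of genes.

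**Figure D3:**
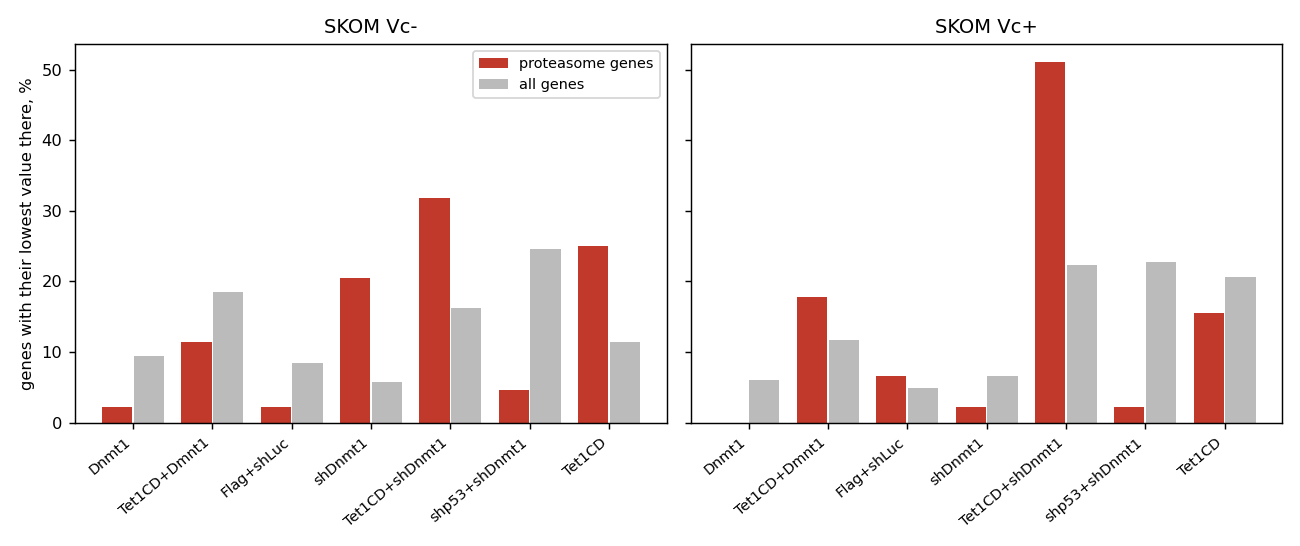
Share of genes (vertical axis, %) that have the lowest of the 7 values of their table in each library, for the proteasome genes (red) and all genes (grey), in the Vc- and Vc+ tables. The Vc+ Tet1CD+shDnmt1 library holds 51.1% of the proteasome genes' lowest values and 22.4% of those of all genes.

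The genes that work with the proteasome did not move as 1 block with Tet1CD. Of 16 partners and substrate shuttles, 1 rose and 3 fell: Zfand2a, a stress-induced proteasome adaptor, rose by 0.63 ± 0.12 (SE, adjusted p = 0.00162), while the ubiquilins Ubqln4 (-0.48 ± 0.09), Ubqln2 (-0.27 ± 0.08) and Ubqln1 (-0.16 ± 0.06) fell. Pomp, the chaperone that matures the core, had -0.11 ± 0.06 (adjusted p = 0.124). Of 14 regulators of proteasome gene transcription, 3 rose and 3 fell. Nfe2l1, the activator of proteasome genes, rose by 0.42 ± 0.08 (SE, adjusted p = 0.00201). The core and 19S genes had 6 falls and 0 rises among 31 in the same fit, a share of falls no higher than the 24.9% of all genes. The NF-Y subunits Nfyc (-0.39 ± 0.06) and Nfyb (-0.30 ± 0.08) and Foxo4 (-1.14 ± 0.21) fell, and Maff (0.34 ± 0.09) and Nfe2l2 (0.25 ± 0.06) rose. Of 13 genes of Vcp and its cofactors, which extract proteins for degradation, 4 rose and 0 fell, led by Ubxn4 (0.46 ± 0.06).

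Other lists set the scale. Of 10 targets of Nfe2l2, 9 rose and 0 fell, among them Nqo1 (1.78 ± 0.17) and Hmox1 (1.18 ± 0.18). Of 15 autophagy genes 7 rose and 0 fell, led by the cargo receptor Sqstm1 (0.79 ± 0.10). All 8 genes of the chaperonin, another ring-shaped machine of protein quality control, fell, by 0.21 to 0.55 on the log2 scale. The members' median of -0.13 lay between that of the chaperonin (-0.39) and that of the autophagy genes (0.20).

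No member passed the test with the other constructs in SKOM cells. With shDnmt1, limma called 0 members (0.0% of all genes higher, 0.0187% lower) and an unadjusted p under 0.05 was reached by 2, Psme1 (-0.27 ± 0.11) and Psmd10 (-0.33 ± 0.14), each with an adjusted p of 1.0. In the libraries labelled Dnmt1 it called 0 members (0.0% of genes higher and 0.0% lower), 0 also at an unadjusted p under 0.05; the smallest p were those of Psme1 (0.20 ± 0.11) and Psmb6 (0.12 ± 0.07). With shp53, present in 1 library per medium, it called 0 members (0.0% of genes higher, 0.00934% lower) and 3 had an unadjusted p under 0.05. Of the 44 estimates 40 were above 0, with a median of 0.10 against 0.006 for all genes. The share of all genes above 0 was not counted, so the 40 is read as no result about the members. The 2 smallest p belonged to the alpha subunit Psma6 (0.26 ± 0.09, adjusted p = 0.401) and the lid subunit Psmd12 (0.25 ± 0.10, adjusted p = 0.417). Psma6 was 787 in the Vc+ and 564 in the Vc- library with shp53+shDnmt1, against 638 and 437 with shDnmt1. Psmd12 was 1066 and 636, against 893 and 550.

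In MEFs without SKOM each construct had 1 library, so values have no replicate check and no p, and a member counts as changed past 1.5-fold on the log2(value + 5) scale. With shp53, 2 pairs could be formed, shp53 against Flag+shLuc and shp53+shDnmt1 against shDnmt1. No member passed in both pairs, where 5.78% of genes were higher and 6.06% lower. Below that size, 22 of 43 members were higher in both pairs (37.2% of genes) and 6 lower (38.3%). Psmg3 went from 28 to 44 and from 27 to 45, Psma1 from 518 to 680 and from 521 to 705, and Psmg1 from 205 to 263 and from 195 to 270. These 3 rank among the higher members in both pairs, and 2 of them are alpha ring chaperones. Psmd10, the ATPase ring chaperone also called gankyrin and known to act on p53, went the other way, from 179 to 125 and from 154 to 119.

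The remaining MEF constructs moved no member past 1.5-fold. That was so for shDnmt1 in both of its pairs (0.403% of genes higher, 0.514% lower), for Tet1-CD (4.81% and 5.82%) and for Dnmt1 (0.645% and 0.665%). The largest values with Tet1-CD were those of Psma2, from 848 to 1179, and Psme2, from 150 to 200. The alpha ring chaperones and Psme3 that fell with Tet1CD in SKOM cells kept near their control in MEFs: Psmg1 was 195 against 205, Psmg2 122 against 118, Psmg3 29 against 28, Psmg4 21 against 23 and Psme3 1240 against 1261. The difference between the cell states was not tested.

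Vitamin C and reprogramming were described with log2 ratios of libraries with the same construct, centred on the median of each pair because the tables were normalized separately. Between the media no member had the same direction in 7 of 7 pairs and a median of at least 1.5-fold, where 1.24% of 9999 genes were higher with vitamin C and 1.45% lower. Psmd8, a lid subunit, was lower in 7 of 7 pairs with a median of -0.32, and Psme2 was higher in 6 of 7 with 0.52. The median over 42 members was 0.01. Without the centring 16 members passed as higher, but the median gene then differed as well, 226 in Vc+ and 180 in Vc- libraries. The share of all genes was not counted without centring, so the 16 is read as no result about the members.

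Against MEFs with the same construct (4 pairs), Vc- SKOM cells had 0 members higher and 3 lower, where 13.7% of genes were higher and 16.4% lower. The 3 were Psmd5 (median -0.85), Psme1 (-0.64) and Psme2 (-0.64). In Vc+ cells 2 members were higher, Psmg3 (0.94) and Psmb10 (0.60), and 2 lower, Psmd5 (-0.85) and Psmd8 (-0.84), where 18.0% of genes were higher and 20.9% lower. The mean of at least 50 was taken over both tables compared, 5C among the libraries. Psmg3 and Psmb10 reached at most 45 and 41 in the MEF libraries. Both are thus in this comparison through Vc+ SKOM and 5C libraries alone, and their count as higher is partly set by that. Psme3 was higher than in MEFs in 4 of 4 pairs in both media, with medians of 0.37 and 0.46. Psmg1 had medians of 0.25 in Vc- and 0.44 in Vc+ cells. These comparisons share the SKOM libraries without Tet1CD with the Tet1CD comparison above, so the values stand side by side and their likeness is no separate result. Not centred, 13 members were lower in Vc- cells, and 5 higher and 0 lower in Vc+ cells. The median gene was then 180 in Vc-, 226 in Vc+ and 208 in MEF libraries. The share of all genes was not counted without centring, so these counts are read as no result about the members.

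The 5C library stood apart from the 6 MEF libraries in the proteasome genes as it did in most genes. With both at Flag+shLuc, 28 of 43 members were at least 1.5-fold higher in 5C and 3 lower, where 29.4% of 9928 genes were higher and 37.6% lower. The mean of at least 50 was taken over all 7 libraries, 5C among them. Psmb10 and Psmg3, at most 41 and 45 in the MEF libraries, are thus among the 43 through 5C alone. The median ratio was 0.79 for members and -0.15 for all genes on the log2 scale. Of 44 members, 32 lay above all 6 MEF libraries, 4 within their range and 8 below, against 36.7% of genes above and 44.6% below. Both sides rest on 1 library of 5C, and the difference has no replicate check.

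The core genes lay higher than those of the regulatory particle, a difference that was not tested. All 14 core genes lay above the 6 MEF libraries, with a median log2 ratio to the control of 1.5. Psmb1 was 5199 against 971 to 1288 and Psmb2 2551 against 376 to 544. The catalytic subunits were at 598 (Psmb5, MEF range 394 to 467), 2192 (Psmb6, 742 to 952) and 1480 (Psmb7, 884 to 973). All 4 alpha ring chaperones were above as well, such as Psmg2 with 531 against 100 to 214 and Psmg3 with 158 against 27 to 45. Psmg4 was 161 against 20 to 34, and it is in the table only through 5C and the 1 MEF library that reached 32. Of 17 genes of the 19S particle, 7 were above, 4 within and 6 below, with a median of 0.15. The ubiquitin receptor Psmd4 was 2860 against 779 to 931, whereas the ATPase Psmc1 was 722 against 1219 to 1393 and the lid subunit Psmd3 775 against 1023 to 1376.

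**Figure D4:**
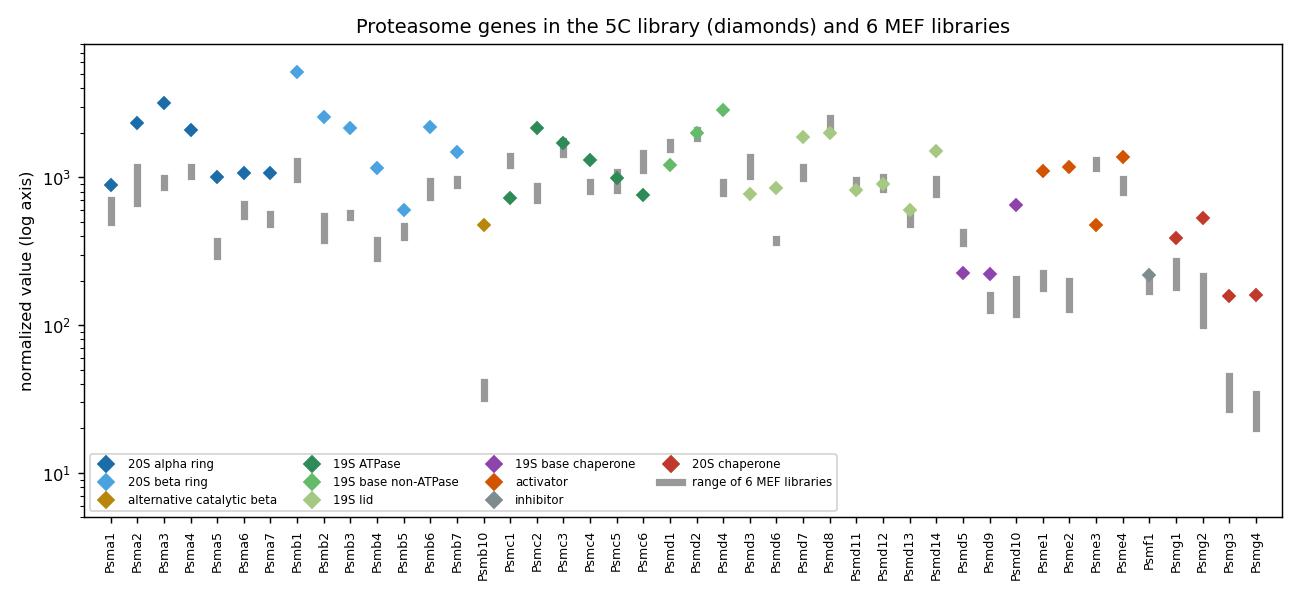
Normalized values (vertical axis, log scale) of 44 proteasome genes in the 5C library (diamonds, coloured by role) and the range of the 6 MEF libraries (grey bars). All 14 core genes lie above their bars and 6 of 17 genes of the 19S particle below, with Psmb10, Psme1 and Psme2 far above.

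Of the interferon-inducible members, Psmb10 and Psme2 had the largest ratios of all members, and Psme1 was close to Psmg3. Psmb10 was 479 in 5C and 32 to 41 in the MEF libraries, a log2 ratio to the control of 3.63. Psme2 was 1172 against 129 to 200 (2.92) and Psme1 1106 against 178 to 227 (2.30). Psme3, the third member of the same activator family, was the lowest of all, 478 against 1159 to 1321 (-1.39). Of 12 other interferon response genes with a mean of at least 50, 12 lay above all MEF libraries with a median ratio of 3.59, for example Bst2 with 2229 against 19 to 152. That mean includes 5C, so a gene could enter this count through 5C alone, and the count is partly set by it. Irf1 of the same list, under that mean, was within the MEF range, 37 against 32 to 61. Summed macrophage and leukocyte markers (7 of 10 listed) were 4813 in 5C and 178 to 1532 in the MEF libraries, led by Lyz2 with 2964. Fibroblast markers (10 of 10 listed) summed to 106532 against 35913 to 76146, with Col3a1 at 38803, the highest value of its table. Dcn (8059 against 194 to 276), Lum (3258 against 71 to 100) and Pdgfra (657 against 105 to 362) also lay above all 6 MEF libraries. Thy1 (1216) and Pdgfrb (1008) lay below all 6, and Col1a1, Col1a2, Prrx1 and Twist1 were within the MEF range. The 2 listed epithelial markers summed to 285 against 1573 to 2222. Cd24a made up most of that (252 against 1439 to 2195), and Krt18 was within the MEF range (33 against 10 to 134). The part of other cells in the 5C values was not tested. Nfe2l1 was 592 in 5C against 1708 to 2742 in MEFs, and 3 of 14 regulators were above and 8 below the MEF range.

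The promoters of the 3 interferon-inducible members are shown because all 3 lay far above the MEF libraries. Windows, build and motifs are those given above.
Psmb10, chr8:105938343-105938642, minus strand: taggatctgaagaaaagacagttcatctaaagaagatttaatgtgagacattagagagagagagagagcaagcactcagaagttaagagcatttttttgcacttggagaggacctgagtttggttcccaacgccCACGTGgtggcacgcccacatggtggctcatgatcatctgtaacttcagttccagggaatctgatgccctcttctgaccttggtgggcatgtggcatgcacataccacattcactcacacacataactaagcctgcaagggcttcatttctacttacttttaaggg
Psme1, chr14:55578244-55578543, plus strand: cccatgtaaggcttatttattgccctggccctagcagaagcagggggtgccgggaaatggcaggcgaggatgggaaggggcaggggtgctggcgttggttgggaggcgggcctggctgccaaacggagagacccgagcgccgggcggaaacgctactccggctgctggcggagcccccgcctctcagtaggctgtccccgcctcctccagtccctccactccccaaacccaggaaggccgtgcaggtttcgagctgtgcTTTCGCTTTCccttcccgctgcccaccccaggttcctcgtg
Psme2, chr14:55591052-55591351, minus strand: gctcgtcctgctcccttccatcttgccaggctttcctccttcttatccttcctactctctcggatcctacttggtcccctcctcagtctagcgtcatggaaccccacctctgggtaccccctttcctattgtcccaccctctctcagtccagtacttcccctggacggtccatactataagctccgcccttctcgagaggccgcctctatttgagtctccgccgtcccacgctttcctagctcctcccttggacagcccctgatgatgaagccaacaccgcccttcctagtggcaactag

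Psme1 held TTTCGCTTTC, a match of the interferon-stimulated core on the other strand, at 9 to 18 from the RefSeq start site, which lies 371 bases from the start of the gene in the deposited coordinates. Psmb10 held an E box at -116 to -111 and none of the interferon motifs, and Psme2, whose window starts 14 bases from the deposited start, held none of the 5 motifs. The absence of a match says only that these letters are not in these windows.

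Length moved with the 5C values. The median log2 ratio over all genes was 1.82 for mRNAs under 1000 bases, 0.64 from 1000 to 2000, -0.14 from 2000 to 4000 and -0.70 above 4000. For members it was 2.11 (6 genes), 0.91 (25), -0.05 (10) and -0.08 (2). The core genes are also shorter, with a median mRNA of 1162.5 bases against 1819 for the 19S particle. Within 1000 to 2000 bases the 8 core genes still had a median of 1.04 (0.65 to 2.12) and the 12 genes of the 19S particle 0.46 (-0.89 to 1.82), and these ranges overlap. Psma2 and Psma3, with mRNAs of 2911 and 2846 bases, had ratios of 1.45 and 1.80. How much of the members' values goes with length beyond these bins was not tested.

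**Figure D5:**
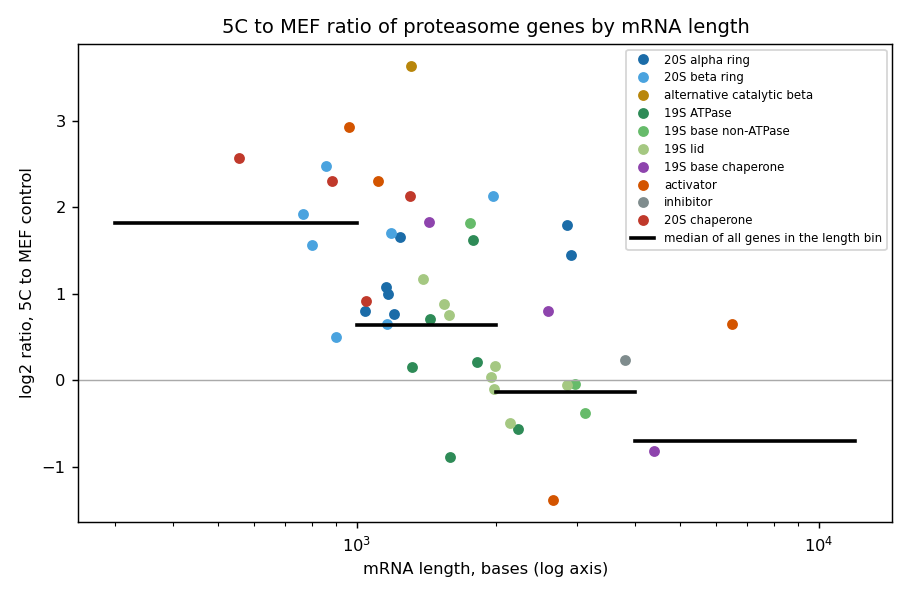
Log2 ratio of 5C to the MEF control (vertical axis) against mRNA length in bases (horizontal axis, log scale) for the proteasome genes, coloured by role, with black lines at the median of all genes in 4 length bins. Psmb10 (3.63) and Psme2 (2.92) lie highest, Psme3 (-1.39) lowest, and the line falls from 1.82 to -0.70.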

How the data were processed

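RNA of 21 libraries in 3 tables was analysed. The deposited values are whole numbers that the authors had normalized within each table, so they were treated as a score and not as counts. Per the submitters' processing notes, Bowtie, RSEM and mm10 were used, with no role or version given in the sources used here; depth per library is unknown, so no counting interval is given. The number of libraries, 1 per group, limits the precision.

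Differences were fitted with limma 3.58.1 (R 4.3.3) on log2(value + 5) over all genes whose mean reached 10, in an additive model over 14 libraries (medium, which is also the table, Dnmt1, shDnmt1, Tet1CD and shp53), within each medium, and with medium by construct terms; p-values are two-sided and adjusted after Benjamini and Hochberg over all genes. The threshold was an adjusted p under 0.05. MEF constructs, 5C, the media and MEFs against SKOM cells were described without a test, among genes with a mean of at least 50. The code was tested on simulated data. The mRNA length is that of the longest protein-coding transcript in the reference annotation. The members and lists were chosen with earlier results of these data known. Values in every library are given for up to 3 members per direction with the largest change, for Psmb10, Psme1 and Psme2, for the catalytic subunits, for members against the common direction and otherwise for the 2 smallest p; those of Psma3, Psmb4, Psmc1, Psme3 and the MEF examples beyond that rule were chosen after their values were seen. Promoters are RefSeq's (37 of 45 members matched). Alternatives were other pseudocounts, filters, centring, no variance trend, fewer covariates, other references and leaving out each library.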

Additional observations from a re-analysis of the deposited data

How the results depend on the processing

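Of the counts of members recomputed under alternatives, 246 stayed within 1.5 times of the reported count and 38 did not. Of single-member values, 531 kept direction and side of the threshold, 63 lost the threshold, 16 gained it and 4 reversed. With medium and Tet1CD alone in the model, 1 member rose over both media, and with Tet1CD alone 12 fell in the Vc+ libraries. Without the variance trend, 1 member fell in Vc- and 2 in Vc+ libraries; with a mean of at least 50 required, 1 rose in Vc+ libraries. With MEF Dnmt1 as the reference, 5 members were lower in 5C and 2 higher with Tet1-CD in MEFs. With a pseudocount of 1, 1 member was higher with shp53 in both MEF pairs. Not centred, 16 members were higher with vitamin C, 13 lower in Vc- SKOM cells than in MEFs, and 5 higher and 0 lower in Vc+ SKOM cells. The counts without centring carry the different scales of the tables, and the share of all genes was not counted there. They are read as no result about the members. The cause of the other shifts was not tested. Leaving out each library gave 0 to 2 members higher and 6 to 13 lower over both media (7 without Vc- Dnmt1 or Vc- Flag+shLuc, 6 without Vc+ Tet1CD+Dmnt1 or Vc+ shDnmt1), 0 to 1 higher and 0 to 3 lower in Vc- libraries (0 lower without Dnmt1, shDnmt1, Tet1CD+Dmnt1 or Tet1CD+shDnmt1), 1 to 3 higher and 0 to 6 lower in Vc+ libraries, 0 to 1 in either direction for the interaction, and 0 to 0 for shDnmt1, Dnmt1 and shp53. Leaving out each library, Psme1 over both media ranged from -0.0275 to 0.0912, reversed without Vc+ Dnmt1 or Vc+ Tet1CD+Dmnt1, and Psme2 in Vc- libraries from -0.0898 to 0.217, reversed without shDnmt1 or Tet1CD+shDnmt1. No paired analysis was possible because the labels carry no replicate numbers and each group has 1 library; the pairs counted in the text were matched by medium and the other constructs, with no test. Depth is unknown and limits the low values most.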
